A study of Mus musculus with 13 samples.

Results

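Atoh1, Gfi1, Hes1, Hes5, Hes6, Nrarp, Dll1, Dll4, Notch1 and Jag1 are the genes through which Notch signalling sets secretory against absorptive fate in the intestinal epithelium. They were chosen by name, 10 of the 24054 genes in the count tables, and all 10 passed the low-count filter in every fit. Their levels were measured by bulk RNA-seq in 13 libraries of adult mouse small intestine that form 6 groups, to compare the effects of Apc deletion between cell types and between tissue and culture. Apc is part of the complex that degrades beta-catenin, and its loss leaves Wnt signalling switched on. Tamoxifen was given in 2 doses of 1 mg to all mice, WT groups included. Organoids, epithelial cultures grown from ileal crypts and collected whole, made up 3 groups of 2 libraries with a time point of 10 days. One label counts these days from tamoxifen to plating and another from plating to collection. These were WT organoids (genotype given as WT), Sec-Cre organoids (Atoh1CreERT2;Apcfl/fl;Rosa26tdTomato, Cre driven by Atoh1 in the secretory lineage) and ISC-Cre organoids (Lgr5eGFP-CreERT2;Apcfl/fl;Rosa26tdTomato, Cre driven by the stem cell gene Lgr5). Intestinal stem cells (ISCs) sorted by flow cytometry made up the other 3 groups. WT ileal ISCs (Apcfl/fl;Lgr5DTR-GFP;Rosa26tdTomato, floxed Apc without a Cre, 21 days, 2 libraries) and Sec-Cre ileal ISCs (Atoh1CreERT2;Apcfl/fl;Lgr5DTR-GFP;Rosa26tdTomato, 21 days, 2 libraries) share a gut region and a time point. ISC-Cre duodenal ISCs (Lgr5eGFP-CreERT2;Apcfl/fl;Rosa26tdTomato, 14 days, 3 libraries) have no duodenal WT group beside them, and their cells were dissociated with another enzyme. Whether the Atoh1CreERT2 allele alters the Atoh1 transcript, and whether replicates were separate mice or cultures, is not given in the sources used here. The sources also disagree on gut region. The extraction protocol names duodenum for all samples, while titles or the design text name ileum for organoids and ileal ISCs, and ileum was followed for these. Groups with both a Cre and floxed Apc are called Apc-null as their titles do.

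In the Notch pathway, a ligand such as Dll1, Dll4 or Jag1 on one cell activates a receptor such as Notch1 on its neighbour, and the released receptor fragment joins Rbpj to switch on targets that include Hes1, Hes5 and Nrarp. Hes1 represses Atoh1, the transcription factor that commits a progenitor to the secretory lineage and acts upstream of Gfi1 and Dll1. Cells with high Notch activity therefore remain progenitors or become absorptive enterocytes, and cells that escape it become Paneth, goblet, enteroendocrine or tuft cells.

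The promoters of 4 genes whose levels moved in Apc-null organoids are shown as RefSeq gives them on GRCm38.p6, each with 250 bases before and 50 after the annotated start: Atoh1 (chr6:64728875-64729174, plus strand), Hes5 (chr4:154960673-154960972, plus strand), Nrarp (chr2:25180508-25180807, plus strand) and Hes6 (chr1:91413989-91414288, minus strand). Of these, Hes5 passed the test in Sec-Cre organoids only, and there in 6 of 12 alternative analyses. Other genes that moved, Jag1 among them, are not shown. Capitals mark matches, on either strand, to 5 motifs: TGGGAA, the core bound by Rbpj, the N-box CACNAG bound by Hes proteins, the E-boxes CAGCTG and CATCTG bound by factors such as Atoh1, and CTTTGAT, the core bound by Tcf factors of the Wnt pathway.
Atoh1: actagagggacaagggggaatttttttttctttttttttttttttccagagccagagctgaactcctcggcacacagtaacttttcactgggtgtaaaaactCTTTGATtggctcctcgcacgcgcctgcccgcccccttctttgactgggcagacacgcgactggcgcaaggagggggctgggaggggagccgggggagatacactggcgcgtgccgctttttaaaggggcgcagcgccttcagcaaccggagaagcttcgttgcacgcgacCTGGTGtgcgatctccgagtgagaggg
Hes5: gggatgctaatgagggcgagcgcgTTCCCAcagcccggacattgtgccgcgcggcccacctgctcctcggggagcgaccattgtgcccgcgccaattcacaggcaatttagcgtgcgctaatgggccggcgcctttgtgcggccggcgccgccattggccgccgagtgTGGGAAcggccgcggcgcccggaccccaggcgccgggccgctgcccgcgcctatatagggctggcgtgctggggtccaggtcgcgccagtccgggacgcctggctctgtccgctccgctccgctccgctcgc
Nrarp: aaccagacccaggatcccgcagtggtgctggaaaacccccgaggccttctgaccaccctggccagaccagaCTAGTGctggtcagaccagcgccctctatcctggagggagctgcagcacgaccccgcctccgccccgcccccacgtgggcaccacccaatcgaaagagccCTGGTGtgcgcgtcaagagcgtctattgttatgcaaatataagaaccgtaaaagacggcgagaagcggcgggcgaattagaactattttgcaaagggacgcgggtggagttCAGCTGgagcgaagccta
Hes6: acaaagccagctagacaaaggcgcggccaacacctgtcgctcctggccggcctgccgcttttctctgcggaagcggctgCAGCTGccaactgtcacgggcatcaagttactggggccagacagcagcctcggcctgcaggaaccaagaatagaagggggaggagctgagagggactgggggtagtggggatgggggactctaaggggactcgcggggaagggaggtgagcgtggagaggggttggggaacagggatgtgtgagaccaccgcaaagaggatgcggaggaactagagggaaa
The Hes5 promoter holds 2 TGGGAA matches, at bases -226 and -82 from the start site. The Atoh1 promoter holds 1 CTTTGAT match, at base -148, and 1 CACNAG match, at base 23. The Nrarp promoter holds 2 CACNAG matches, at bases -179 and -79, and 1 CAGCTG match at base 32, and the Hes6 promoter holds 1 CAGCTG match at base -171. A second Hes6 start in the table (chr1:91413173-91413472) is not shown and holds 2 CACNAG matches, at bases -237 and 15, and 1 CAGCTG match at base -150. No motif overlaps another in the 4 windows shown. Among 32851 promoters of this length, 25.6% held TGGGAA, 42.5% CACNAG, 16.3% CAGCTG, 17.2% CATCTG and 3.73% CTTTGAT. Of the 10 genes, 9 had a promoter in the table, and Hes1 had none.

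In GENCODE vM21 on GRCm38 the genes lie at chr6:64729125-64731245 (Atoh1), chr5:107716657-107726036 (Gfi1), chr16:30064384-30067796 (Hes1), chr4:154960923-154962371 (Hes5), chr1:91411483-91414038 (Hes6), chr2:25180758-25183339 (Nrarp), chr17:15367354-15376872 (Dll1), chr2:119325784-119335962 (Dll4), chr2:26457903-26516663 (Notch1) and chr2:137081456-137116644 (Jag1). Exons of Nrarp share 2051 bases with Gm38287 on the opposite strand, and those of Hes5 share 433 bases with Gm20421. Dll1 (867 bases), Dll4 (214), Gfi1 (101) and Notch1 (1068 and 414, with 2 genes) have such overlaps too. For Dll4, WT ileal ISC replicate 1 had 640 reads on both strands together but 391 and 384 when each strand was counted apart. In duodenal replicate 1 these were 537, 5 and 574. Reads were thus left out of the joint Dll4 count, unevenly between libraries. Reads of such pairs cannot be told apart in the libraries of organoids and ileal ISCs, which carry no strand. In the 3 duodenal libraries, where 98.5% to 98.9% of all gene reads fell on 1 strand, 141 of 141, 278 of 278 and 109 of 111 Nrarp reads lay on that strand.

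Depth was 11524335 to 45516228 gene counts a library. The libraries of Sec-Cre ileal ISCs stood apart: 57.0% and 35.8% of reads were unmapped, against 2.58% to 13.9% elsewhere, and in replicate 1 the Paneth markers took 25.2% of gene counts. Enterocyte markers summed to 24000 to 44900 CPM (read counts scaled to a common library size) there, against 770 to 817 in WT ileal ISCs, and all 10 were called higher. Short transcripts also read higher in them: against WT ileal ISCs the median log2 fold change was 0.74 for genes with under 2629 exon bases and -0.43 for those with over 6629. The stem cell marker Lgr5 was at 51.9 to 69.4 CPM in Sec-Cre and 61.4 to 97.7 CPM in WT ileal ISCs, with overlapping ranges, while Olfm4, another, was at 302 and 1260 against 3010 and 3610 CPM. Whole-gene Apc counts do not test the deletion: Apc was at 139 to 156 CPM in WT and 185 to 243 CPM in Apc-null organoids, at 114 to 124 CPM in WT ileal ISCs, 48.2 to 107 CPM in Sec-Cre ileal ISCs and 165 to 453 CPM in duodenal ISCs. All levels are CPM on library sizes scaled by TMM over the 13 libraries, unless a sentence says per kilobase.

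**Figure D1:**
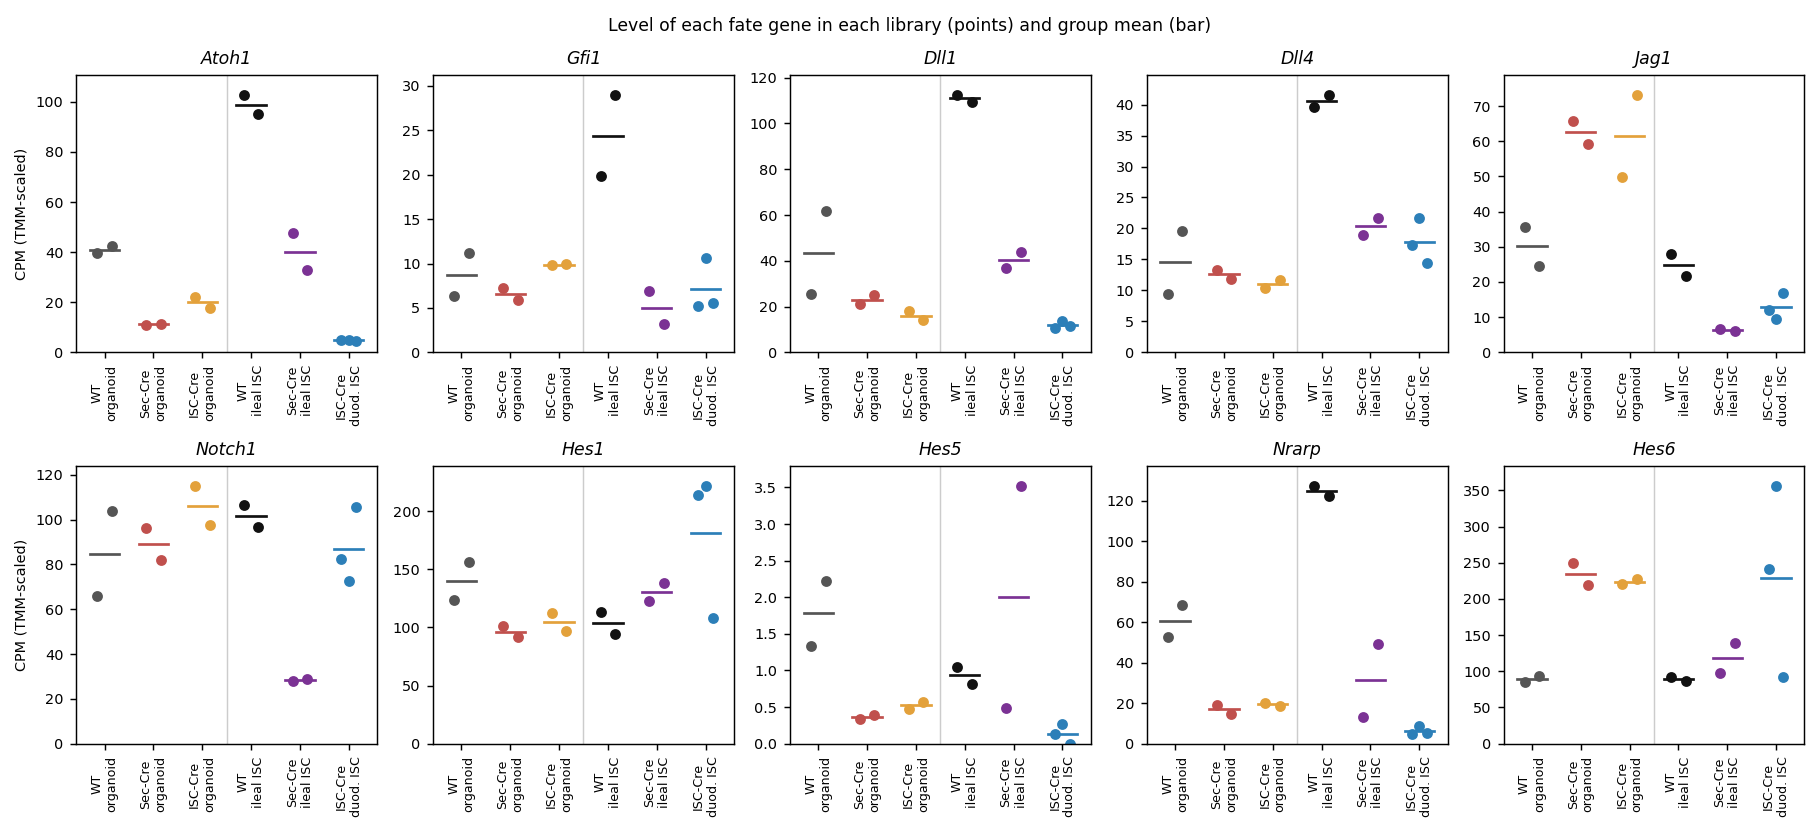
Level of each of the 10 genes (vertical axis, CPM on TMM-scaled library sizes, linear from 0) in each library (points) of the 6 groups, with the group mean as a bar; organoids stand left of the grey line and sorted ISCs right of it. Atoh1 runs from 102.7 CPM in a WT ileal ISC library to 4.59 CPM in a duodenal one, while Hes1 stays between 91.5 and 221 CPM.

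Per kilobase of exon, the WT samples held Hes1, Hes6, Nrarp and Atoh1 highest and Hes5 lowest. In WT ileal ISCs the 4 leading genes were close, at 51.1 ± 6.49 (Hes1), 49.5 ± 1.92 (Hes6), 48.3 ± 1.31 (Nrarp) and 46.6 ± 2.56 (Atoh1) CPM per kilobase (SD, n = 2), and these neighbours did not differ beyond their spread. Dll1 followed at 26.3 ± 0.489, Dll4 at 10.5 ± 0.347, Gfi1 at 7.66 ± 2.03, Notch1 at 7.13 ± 0.48, Jag1 at 4.24 ± 0.751 and Hes5 at 0.684 ± 0.126. WT organoids kept the first 5 in the same order, with Hes1 at 68.8 ± 11.2 and Atoh1 at 19.4 ± 0.871 CPM per kilobase. In every Apc-null group Hes6 and Hes1 were the leading pair and Hes6 had the higher mean. Atoh1 had rank 3 in Sec-Cre ileal ISCs, rank 4 in ISC-Cre organoids and rank 7 in both other Apc-null groups.

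Atoh1 fell in both kinds of Apc-null organoid, and so did Nrarp, a Notch target whose product dampens Notch signalling, while Hes6 and the ligand Jag1 rose. With the secretory driver, 2 of the 10 genes were called higher and 4 lower, beside 33.0% of all 14208 tested genes called, 16.7% higher and 16.3% lower (edgeR quasi-likelihood test, Benjamini-Hochberg adjusted p under 0.05). Their median log2 fold change was -0.54, against 0.05 over all genes tested. With the stem cell driver, 2 were higher and 3 lower, beside 37.8% of all genes called, 19.3% higher and 18.5% lower, with medians of -0.45 and 0.03. Both comparisons use the same WT organoids, so their values are set side by side and are not independent.

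Among the secretory determinants, Atoh1 was at 39.7 and 42.3 CPM in the WT organoids, 11.0 and 11.5 CPM in Sec-Cre organoids and 22.1 and 17.8 CPM in ISC-Cre organoids. The 3 groups did not overlap, and the Sec-Cre libraries were lowest. The log2 fold change against WT was -1.92 ± 0.19 (SE, edgeR adjusted p = 0.000422) in Sec-Cre and -1.07 ± 0.19 (edgeR adjusted p = 0.00383) in ISC-Cre organoids. Both falls kept their call in all 13 alternative analyses of each comparison. The Atoh1CreERT2 allele is listed for Sec-Cre and not for ISC-Cre organoids, and its part in the Atoh1 level was not tested. Gfi1, a zinc-finger repressor downstream of Atoh1, read 6.33 and 11.2 CPM in WT, 7.22 and 5.88 CPM with Sec-Cre and 9.84 and 9.95 CPM with ISC-Cre in organoids, with overlapping ranges and no call (edgeR adjusted p = 0.315 and 0.78).

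Of the Notch targets, Nrarp was at 52.8 and 68.4 CPM in WT, 19.1 and 14.7 CPM with Sec-Cre and 20.3 and 18.8 CPM with ISC-Cre in organoids. Every Apc-null library lay below both WT libraries, with log2 fold changes of -1.90 ± 0.21 (edgeR adjusted p = 0.000688) and -1.67 ± 0.21 (0.000947), called in all 13 alternatives of each. Hes1, the main Notch effector in the crypt, fell less, from 124 and 156 CPM in WT to 101 and 91.5 CPM in Sec-Cre organoids, by 0.59 ± 0.16 on the log2 scale (edgeR adjusted p = 0.0253). In ISC-Cre organoids Hes1 was at 112 and 97.0 CPM, a log2 fold change of -0.46 ± 0.16 that missed the threshold (edgeR adjusted p = 0.0558). The Sec-Cre call for Hes1 was lost with all 13 libraries in 1 fit (edgeR adjusted p = 0.284), after a correction for transcript length (0.0513), and without Sec-Cre replicate 1 (0.0861), Sec-Cre replicate 2 (0.164) or WT replicate 2 (0.085). Hes5, a close relative of Hes1, was scarce everywhere: 19 and 50 reads (1.34 and 2.22 CPM) in WT, 8 and 10 reads in Sec-Cre and 12 and 12 reads in ISC-Cre organoids. Its log2 fold changes were -2.32 ± 0.68 (edgeR adjusted p = 0.0351) and -1.79 ± 0.66 (0.0682), and the Sec-Cre call held in 6 of 12 alternatives. It was lost without Sec-Cre replicate 1 (0.244), Sec-Cre replicate 2 (0.205) or WT replicate 2 (0.116).

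Hes6, a family member that counters Hes1, moved the other way. It read 85.3 and 94.1 CPM in WT organoids against 249 and 219 CPM in Sec-Cre and 221 and 227 CPM in ISC-Cre organoids. The Apc-null libraries lay well clear of WT, with log2 fold changes of 1.33 ± 0.13 (edgeR adjusted p = 0.000339) and 1.29 ± 0.13 (0.000343). In 1 fit of all 13 libraries both just missed the threshold (edgeR adjusted p = 0.0547 and 0.0574), and they kept it in the other 12 alternatives.

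The ligands did not move together. Jag1 was at 35.7 and 24.5 CPM in WT, 65.8 and 59.3 CPM with Sec-Cre and 49.95 and 73.1 CPM in ISC-Cre organoids, without overlap with WT. It rose by 1.00 ± 0.24 in both on the log2 scale (edgeR adjusted p = 0.017 and 0.0154), and lost the call without WT replicate 2 (0.0512 and 0.0509), Sec-Cre replicate 1 (0.0753) or ISC-Cre replicate 2 (0.1). Dll1, the ligand of early secretory cells, differed more between the WT libraries, at 25.5 and 61.7 CPM, than the Apc-null groups did from one another, at 21.1 and 24.9 CPM (Sec-Cre) and 17.95 and 14.0 CPM (ISC-Cre). It passed the test in ISC-Cre organoids (log2 fold change -1.48 ± 0.38, edgeR adjusted p = 0.0203) and not in Sec-Cre organoids (-0.97 ± 0.38, 0.0867), where it was called without WT replicate 1 (-1.46, 0.00388) and nearest to 0 without WT replicate 2 (-0.20, 0.538). Leaving out WT replicate 2, the higher library, brought the ISC-Cre change of Dll1 to -0.71 (0.0542), and the call was also lost without ISC-Cre replicate 1 (0.0772) or replicate 2 (0.133). Dll4 read 9.49 and 19.6 CPM in WT and 10.4 to 13.3 CPM in the 4 Apc-null libraries, inside the WT range. The receptor gene Notch1 read 65.8 and 104 CPM in WT and 81.8 to 115 CPM in the Apc-null organoids, with no call (edgeR adjusted p = 0.963 and 0.339).

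Markers of mature cells moved with these falls. In Sec-Cre organoids 8 of 9 goblet markers, 7 of 9 tested Paneth markers, 10 of 10 enteroendocrine markers, 4 of 5 tested tuft markers and 10 of 10 enterocyte markers were called lower. In ISC-Cre organoids the counts were 7 of 9, 3 of 9, 9 of 10, 4 of 5 and 10 of 10, beside 16.3% and 18.5% of all genes lower. Called higher were 1 Paneth marker with each driver (Mmp7) and 1 tuft marker with the stem cell driver (Avil). Summed goblet markers were at 4600 to 4970 CPM in WT, 487 to 540 CPM in Sec-Cre and 515 to 738 CPM in ISC-Cre organoids. In bulk samples, fewer cells of a type and less RNA per cell cannot be told apart, and the part of the mature cells in the fall of Atoh1 was not tested. Endothelium also expresses Dll4, Jag1 and Notch1. Of its 10 markers 6 were tested, and 3 were called higher with each driver, beside 16.7% and 19.3% of all genes. The list of 10 summed to 4.80 to 5.06 CPM in WT, 28.4 to 42.6 CPM in Sec-Cre and 32.1 to 46.9 CPM in ISC-Cre organoids. Flt1 and Cdh5 were at 0 in WT and at 7.81 to 17.9 and 7.30 to 23.2 CPM in Apc-null organoids. Without reads in WT, these 2 could not have been called lower. Pecam1 and Kdr were at most 0.355 CPM in all organoids. Of 6 tested stromal markers 2 were called higher and 1 lower with the secretory driver and 3 and 1 with the stem cell driver. The list of 10 summed to 3.20 to 11.0 CPM over all organoids, and 8 of its genes had no reads in WT. The part of either list in the levels of the ligands and Notch1 was not tested.

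**Figure D2:**
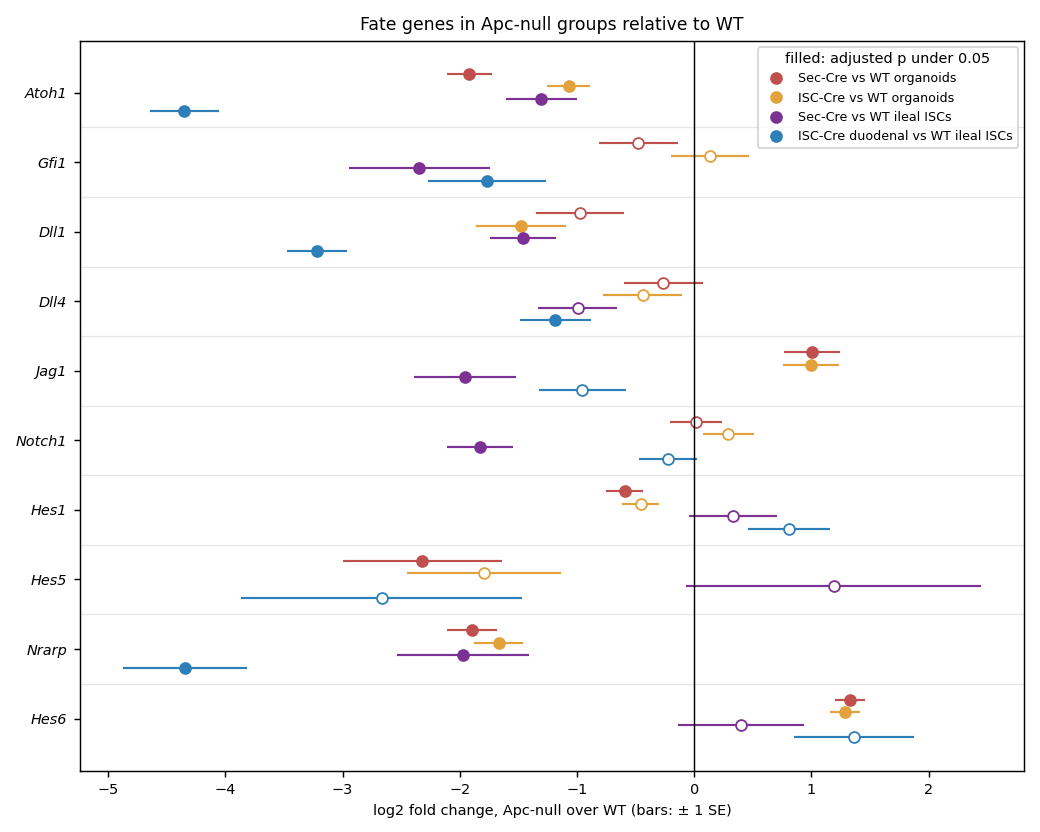
Log2 fold change of each gene in the 4 Apc-null groups over the WT group of the same material (horizontal axis; bars, 1 SE either side; filled points, edgeR adjusted p under 0.05). Atoh1, Nrarp and Dll1 lie left of 0 in all 4 comparisons, Jag1 lies right of 0 in organoids (1.01 and 1.00) and left of it in ileal ISCs (-1.96), and the duodenal points also differ from WT ileal ISCs in gut region and time point.

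Between the drivers, no member passed the test (Sec-Cre against ISC-Cre organoids, edgeR quasi-likelihood test), beside 0.0422% of all genes (6 of 14208). At an unadjusted p under 0.05 there was 1, Atoh1, at 11.0 and 11.5 CPM against 22.1 and 17.8 CPM, a log2 difference of -0.85 ± 0.19 (unadjusted p = 0.00238, edgeR adjusted p = 0.749). DESeq2 called 1 of the 10, also Atoh1 (adjusted p = 0.0259), beside 0.507% of all genes. Only the Sec-Cre genotype lists the Atoh1CreERT2 allele, whose part in the Atoh1 difference was not tested. The other members differed by -0.61 to 0.50 on the log2 scale with SEs of 0.12 to 0.69, Hes6 by 0.05 ± 0.12 and Jag1 by 0.01 ± 0.24.

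In sorted ileal ISCs the secretory driver came with lower levels of Atoh1, Gfi1, Dll1, Jag1, Notch1 and Nrarp, while Hes1 and Hes6 passed no test. None of the 10 genes was called higher and 6 were lower than in WT ileal ISCs, beside 16.6% of all 14577 genes called, 9.62% higher and 6.96% lower. The members' median log2 fold change was -1.38, against 0 over all genes. Atoh1 was at 103 and 95.02 CPM in WT against 47.5 and 32.9 CPM in Sec-Cre ISCs (log2 fold change -1.30 ± 0.31, edgeR adjusted p = 0.0246). Gfi1 was at 19.8 and 29.0 against 6.90 and 3.14 CPM (-2.34 ± 0.60, edgeR adjusted p = 0.0326). Both secretory determinants were lower in each Sec-Cre library than in either WT library.

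Dll1 was at 112 and 109 CPM in WT against 36.7 and 43.9 CPM in Sec-Cre stem cells (-1.46 ± 0.28, edgeR adjusted p = 0.0122). Jag1 was at 27.8 and 21.6 against 6.65 and 6.12 CPM (-1.96 ± 0.44, edgeR adjusted p = 0.0208). Dll4, at 39.6 and 41.5 against 19.0 and 21.7 CPM, had no overlap between groups and missed the threshold (-0.995 ± 0.34, edgeR adjusted p = 0.0765). The receptor Notch1 gave the smallest adjusted p of the 10 genes, at 106 and 96.6 CPM in WT against 28.1 and 29.1 CPM in Sec-Cre ISCs (-1.83 ± 0.28, edgeR adjusted p = 0.00595).

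The targets split. Nrarp read 127 and 122 CPM in WT against 13.3 and 49.1 CPM in Sec-Cre ISCs (-1.98 ± 0.56, edgeR adjusted p = 0.0447), and without Sec-Cre replicate 1 its change was -1.37 (0.0672). Hes1 was at 113 and 94.7 CPM in WT against 123 and 139 CPM in Sec-Cre ISCs (0.33 ± 0.38, edgeR adjusted p = 0.577). Hes6, at 92.0 and 87.1 against 97.8 and 139 CPM, and Hes5, at 17 and 16 reads against 2 and 140, were not called either (edgeR adjusted p = 0.638 and 0.546). The Hes5 reads lay almost wholly in Sec-Cre replicate 2.

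Other traits moved with this comparison, as given above: enterocyte markers and short transcripts were high in the Sec-Cre libraries. Summed stem cell markers were at 1160 and 2140 CPM against 5050 and 5300 CPM in WT. Olfm4 alone was at 302 and 1260 CPM against 3010 and 3610 CPM in WT. Of the 8 stem cell markers 1 was called lower, 0 higher and 7 were not called, with a median log2 fold change of -0.665. Paneth markers were high in Sec-Cre replicate 1 only, at 716000 CPM against 9800 CPM in replicate 2 and 20600 and 19800 CPM in WT. Depth lay on both sides of WT, at 11524335 and 45516228 gene counts against 15573041 and 18609373. The part of these traits in the lower levels was not tested, apart from transcript length. After correction for length the same 6 genes were called, with Notch1 at -1.36 (edgeR adjusted p = 0.0168) and Jag1 at -1.74 (0.0307). Without WT replicate 1 or WT replicate 2 no member was called, with Notch1 nearest at -1.77 (0.0612) and -1.89 (0.0576). The share of all genes called fell alike, from 16.6% to 1.76% and 0.996%. In a fit of these 4 libraries alone, Atoh1 (0.0554), Gfi1 (0.06) and Nrarp (0.0969) were not called. Without Sec-Cre replicate 2 Gfi1 was at -1.82 (0.0833), and on plain library totals the mean of Atoh1 in Sec-Cre ISCs was 22.8 CPM in place of 40.2 CPM.

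**Figure D3:**
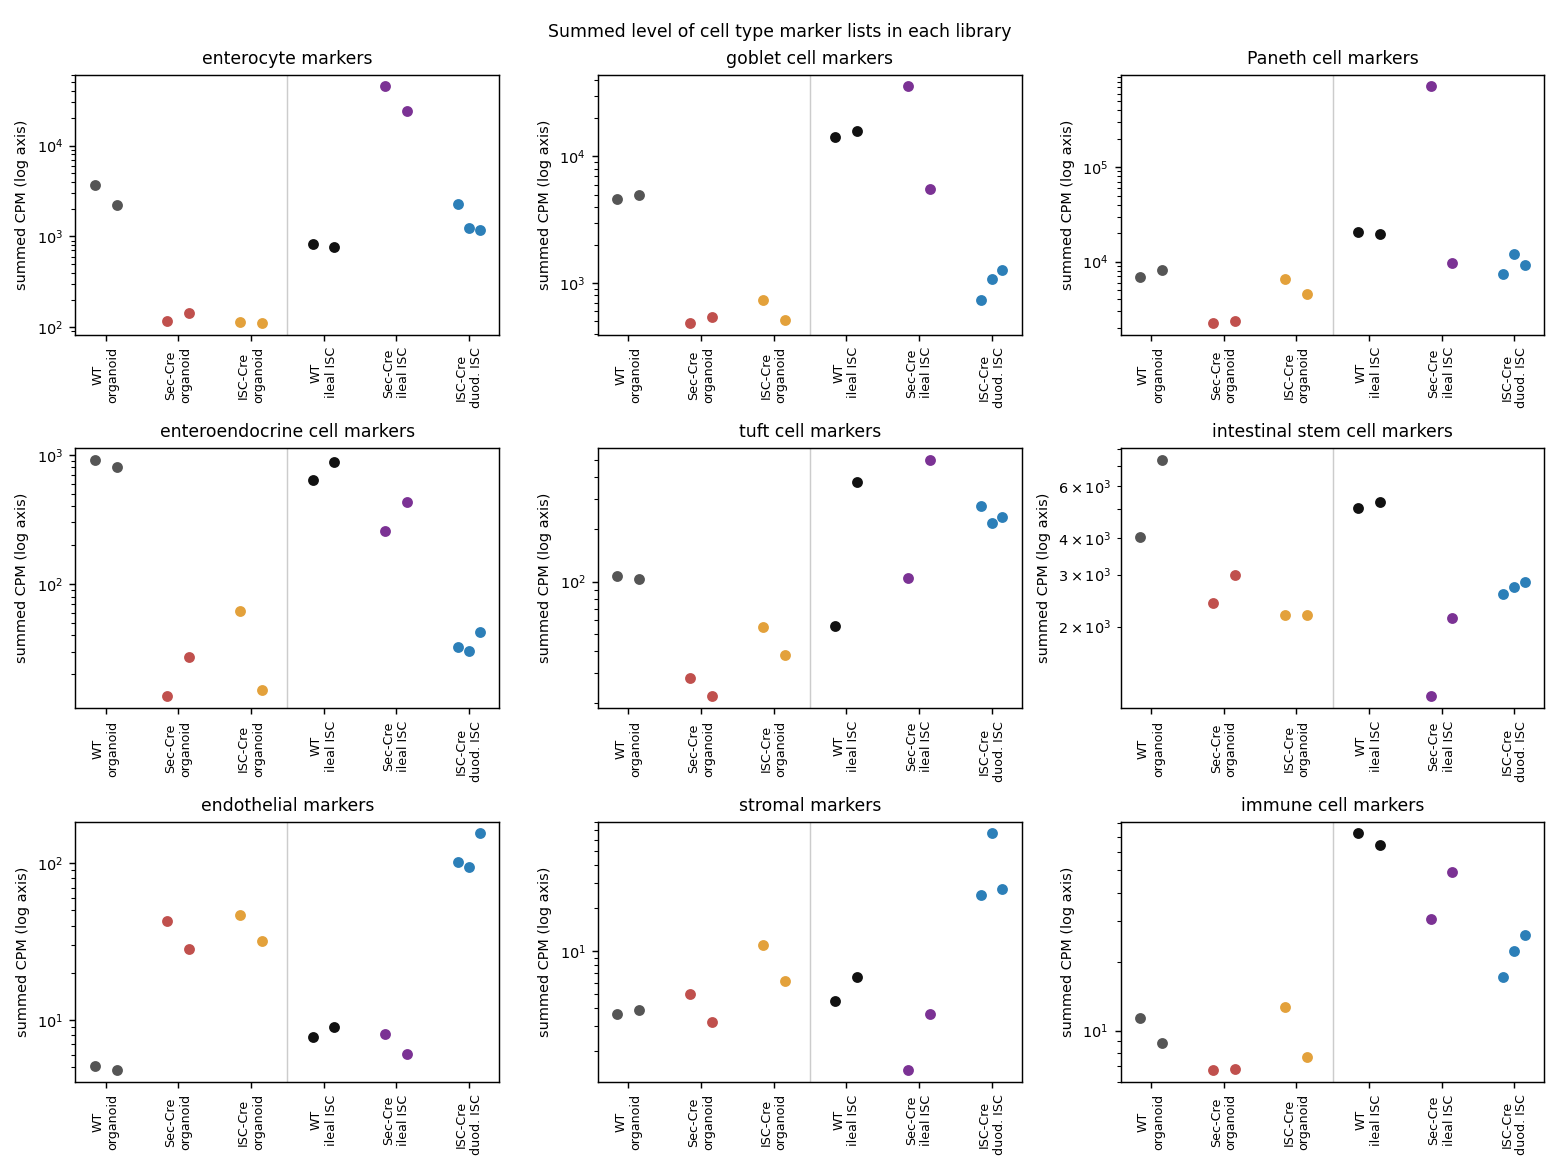
Summed level of 9 lists of cell type markers (vertical axes, summed CPM on a log scale) in each library of the 6 groups. Enterocyte markers are at 24000 to 44900 CPM in Sec-Cre ileal ISCs and 112 to 144 CPM in Apc-null organoids, and Paneth markers, scaled by TMM, differ most between the replicates of Sec-Cre ileal ISCs (716000 and 9800 CPM).

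The duodenal ISC-Cre libraries held the least Atoh1 of any group, at 4.81, 5.10 and 4.59 CPM against 103 and 95.02 CPM in WT ileal ISCs. The log2 fold change was -4.35 ± 0.29 (edgeR adjusted p = 0.000204), rank 12 of 14577 genes by p. In all, 5 members were lower and 0 higher, beside 19.1% of all genes called, 8.84% lower and 10.2% higher, with a median of -1.48 against 0.07 over all genes. Apc loss, presence of a Cre, the Lgr5 allele (Lgr5eGFP-CreERT2 or Lgr5DTR-GFP), gut region, time point, dissociation enzyme and library strandedness cannot be told apart in this comparison. The WT ileal ISCs also serve the comparison above.

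Nrarp fell as far as Atoh1, to 4.55, 8.48 and 5.25 CPM from 127 and 122 CPM (-4.35 ± 0.53, edgeR adjusted p = 0.0013), and Dll1 to 10.6, 13.5 and 11.6 CPM from 112 and 109 CPM (-3.22 ± 0.26, edgeR adjusted p = 0.000375). These 3 falls were called in all 15 alternatives. Gfi1, at 5.26, 10.6 and 5.53 CPM (-1.77 ± 0.50, edgeR adjusted p = 0.0411), and Dll4, at 17.3, 21.8 and 14.4 CPM (-1.18 ± 0.30, edgeR adjusted p = 0.0282), lost their calls without either WT library, without duodenal replicate 1 (0.141 and 0.109) and without replicate 2 (0.0522 and 0.0521), and Gfi1 also without replicate 3 (0.0954). Hes1 and Hes6 were not called: Hes1 was at 214, 221 and 108 CPM and Hes6 at 241, 356 and 91.9 CPM, with replicate 3 near the WT level in both. Without duodenal replicate 3, Hes1 was called at 1.076 (edgeR adjusted p = 0.0217) and Hes6 at 1.75 (0.0136). Notch1, at 82.5, 72.6 and 106 CPM, overlapped WT, and Jag1, at 11.9, 9.34 and 17.0 CPM, lay below it without a call (edgeR adjusted p = 0.108).

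Goblet and enteroendocrine markers were low in the same libraries, with 6 of 9 and 9 of 10 called lower than in WT ileal ISCs, beside 8.84% of all genes. Of 10 enterocyte markers 3 were called higher and 0 lower, beside 10.2% of all genes higher. They summed to 1190 to 2280 CPM against 770 to 817 CPM in WT ileal ISCs. Of 8 stem cell markers 4 were called higher and 1 lower. None of 10 tested Paneth and 5 tested tuft markers was called, and summed tuft markers were at 216 to 273 CPM, inside the WT range of 55.8 to 373 CPM. Most of that duodenal sum was Avil, at 190 to 208 CPM against 14.8 to 97.05 CPM in WT ileal ISCs. The median log2 fold change of the tested tuft markers was -1.65, against 0.07 over all genes. Of the endothelial markers Cdh5 was at 69.3, 63.4 and 140 CPM against 0 in WT ileal ISCs, while the list summed to 94.7 to 155 CPM with 5 of its 10 genes at or under 1 CPM in all 3 libraries. Of 6 tested, 3 were called higher: Cdh5, Flt1 (5.86 to 17.9 against 0 CPM) and Tek (5.15 to 7.60 against 0.124 to 0.405 CPM). Without reads in WT, Cdh5 and Flt1 could not have been called lower. Pecam1 and Kdr were at 0.355 to 0.549 and at most 0.0323 CPM. Stromal markers summed to 24.7 to 66.7 CPM against 4.46 to 6.64 CPM, with 2 of 4 tested called higher. Of the 10 on the stromal list, 6 had no reads in WT ileal ISCs. The part of these lists in the levels of Notch1, Dll4 and Jag1 was not tested.

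Against Sec-Cre ileal ISCs, the duodenal ISC-Cre cells had 4 members lower and 1 higher, beside 40.8% of all genes called, 19.8% lower and 21.0% higher, with a median of 0.14 against 0.12. Atoh1 (-3.05 ± 0.28, edgeR adjusted p = 0.000203) and Dll1 (-1.76 ± 0.25, 0.00121) were lower and Notch1 higher (1.60 ± 0.27, 0.00236), each in all 15 alternatives. A trend with transcript length bears on the last value: genes with under 2629 exon bases had a median of -0.73 here and those with over 6629 a median of 0.73, Notch1 has 14232, and after correction for length it was 0.815 (edgeR adjusted p = 0.032). Driver, Lgr5 allele, region, time point, enzyme, strandedness and library quality cannot be told apart in this comparison. Nrarp was lower by -2.37 ± 0.50 on the log2 scale (edgeR adjusted p = 0.00668), and by -1.12 without Sec-Cre replicate 2 (0.0654). Hes5 was lower by -3.86 ± 1.21 (edgeR adjusted p = 0.0327), a call that rested on the 140 reads of Sec-Cre replicate 2, without which it was -1.76 (0.481). It also missed the threshold without any 1 of the duodenal libraries, at adjusted p of 0.108, 0.0544 and 0.0553. In the duodenal libraries Hes5 had 4, 9 and 0 reads.

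WT organoids held less Atoh1 and Dll4 than WT ileal ISCs. These were the 2 members called, both lower, beside 3.87% of all 15208 genes called, 1.89% lower and 1.98% higher, and the members' median was -0.65 against 0. Atoh1 was at 39.7 and 42.3 CPM in organoids and 103 and 95.02 CPM in ISCs (-1.27 ± 0.25, edgeR adjusted p = 0.0141), and Dll4 at 9.49 and 19.6 against 39.6 and 41.5 CPM (-1.48 ± 0.35, edgeR adjusted p = 0.039). Atoh1 kept its call in 9 of 13 alternatives and lost it when any 1 of the 4 libraries was left out. Dll4 kept it in 10 of 13 and lost it without WT organoid replicate 1 (0.302), WT ISC replicate 1 (0.119) or WT ISC replicate 2 (0.193). Sorted WT ISCs also held more goblet marker RNA, at 14100 to 16000 CPM against 4600 to 4970 CPM in organoids, and the part of such cells in the Atoh1 level was not tested.

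The effect of the secretory driver differed between organoids and ileal ISCs for Jag1 and Notch1. As an interaction term in the fit of all 13 libraries, 2 members were higher and 0 lower, beside 26.4% of all genes called, of which about as many were higher as lower. The members' median was 0.66, against 0.16 over all genes. The organoid effect exceeded the ISC effect by 3.02 ± 0.48 for Jag1 (edgeR adjusted p = 0.000866) and by 1.90 ± 0.37 for Notch1 (edgeR adjusted p = 0.00312), and both were called in all 17 alternatives. After correction for transcript length they were 2.80 (0.00112) and 1.27 (0.0239). For Atoh1 the difference was -0.56 ± 0.35 (edgeR adjusted p = 0.264) and for Nrarp 0.12 ± 0.66 (0.95), without a call.

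Ratios between 2 genes of 1 library do not depend on how libraries are scaled. Per kilobase, Hes1 exceeded Atoh1 by 1.15 and 1.04 times in WT ileal ISCs, 2.69 and 4.39 times in Sec-Cre ileal ISCs and 46.2, 45.2 and 24.5 times in duodenal ISCs. In organoids the ratio was 3.25 and 3.84 in WT, 9.57 and 8.29 in Sec-Cre and 5.28 and 5.66 in ISC-Cre. It was higher in every Apc-null library than in the WT libraries of its material. Counting alone gives duodenal replicate 3 an exact 95% interval with an upper bound of 30.4. Nrarp, read against Hes1, the other Notch target, went from 0.336 and 0.345 in WT organoids to 0.127 to 0.152 in the 4 Apc-null ones, and from 0.884 and 1.02 in WT ileal ISCs to 0.0854 and 0.28 with the secretory driver and 0.0168, 0.0302 and 0.0383 in duodenal ISCs. The ratio of these targets was thus lower in all 9 Apc-null libraries than in the 4 WT libraries. Hes6 over Hes1 went from 0.775 and 0.678 in WT organoids to 2.22 to 2.78 in Apc-null ones, and stayed between 0.896 and 1.81 in all sorted ISCs.

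**Figure D4:**
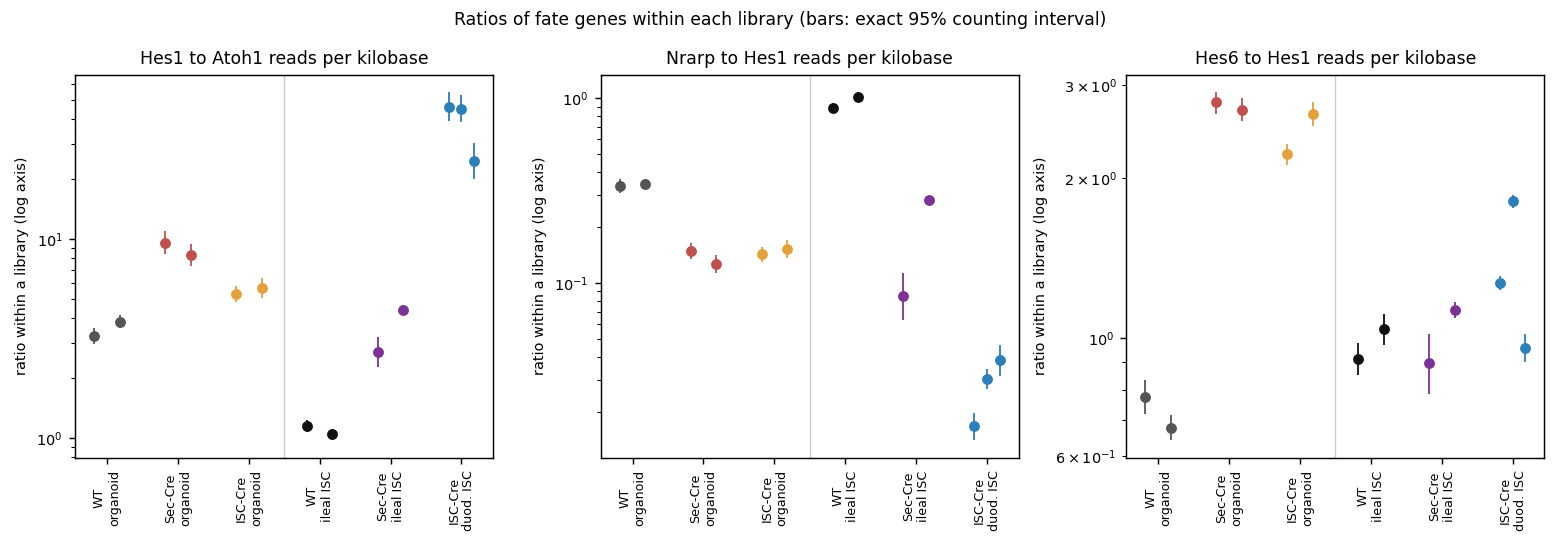
Ratios of Hes1 to Atoh1, Nrarp to Hes1 and Hes6 to Hes1 reads per kilobase (log axes) in each library; bars are exact 95% counting intervals. Hes1 to Atoh1 runs from 1.04 in WT ileal ISCs to 46.2 in duodenal ISCs, and Nrarp to Hes1 from 1.02 down to 0.0168 in the same groups.

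The counts in the pathway lists stand beside the shares of all genes higher and lower, which were 16.7% and 16.3% in Sec-Cre organoids, 19.3% and 18.5% in ISC-Cre organoids, 9.62% and 6.96% in Sec-Cre ileal ISCs and 10.2% and 8.84% in duodenal ISCs. Of the other Notch receptors and ligands, Notch2 and Notch3 rose in Apc-null organoids, as 2 of 7 tested genes did with each driver, while 2 fell with the secretory and 1 with the stem cell driver. Notch2 was at 36.1 to 45.8 CPM in WT and 78.9 to 96.1 CPM in the Apc-null organoids (log2 fold changes 1.03 ± 0.18 and 1.09 ± 0.18, edgeR adjusted p = 0.00477 and 0.00314), and Notch3 at 2.67 to 4.92 against 21.0 to 29.2 CPM. In Sec-Cre ileal ISCs Notch2 was instead lower, at 9.49 to 14.0 CPM against 43.7 to 50.4 CPM (-2.02 ± 0.37, edgeR adjusted p = 0.0105), and its interaction term was 3.11 ± 0.43 (0.000355). The list's median was 0.08 in Sec-Cre organoids, 0.45 in ISC-Cre organoids, -1.14 in Sec-Cre ileal ISCs and 0.66 in duodenal ISCs, beside 0.05, 0.03, 0 and 0.07 over all genes.

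Among genes that process ligand and receptor, 4 of 26 rose and 5 fell in Sec-Cre organoids, and 5 rose and 5 fell in ISC-Cre organoids, near the shares of all genes. Neurl1a, a ubiquitin ligase for Notch ligands, rose most clearly, from 1.73 to 1.83 CPM in WT to 41.2 to 79.7 CPM in the Apc-null organoids (4.72 ± 0.40 and 5.06 ± 0.40, edgeR adjusted p = 0.000203 and 0.000135). In Sec-Cre ileal ISCs 1 of 27 rose and 5 fell: Mib1, the other main ligand ubiquitin ligase, was at 7.15 to 11.6 CPM against 57.9 to 67.9 CPM (-2.79 ± 0.50, edgeR adjusted p = 0.00934), and Psenen, a short subunit of gamma-secretase, was higher (2.28 ± 0.57, 0.0309). In the nuclear complex, 3 of 20 rose and 1 fell with the secretory driver in organoids, and 4 and 1 with the stem cell driver. Maml2, a coactivator of the Notch complex, was at 0.774 to 0.80 CPM in WT and 9.12 to 10.4 CPM in the Apc-null organoids (3.64 ± 0.33 and 3.59 ± 0.33, edgeR adjusted p = 0.000278 and 0.000252). In Sec-Cre ileal ISCs Rbpj was the 1 gene called of the 20 and fell from 39.0 to 40.7 CPM to 12.1 to 16.3 CPM (-1.50 ± 0.35, edgeR adjusted p = 0.0242). The trend with transcript length bears on these ileal ISC values. Notch2, Mib1 and Rbpj, all lower, have 10782, 10937 and 12750 exon bases, and Psenen, higher, has 1275. Genes with over 6629 exon bases had a median of -0.43 there and those with under 2629 a median of 0.745. The part of length in these 4 calls was not tested.

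Of the other Notch targets, 4 passed the filter in organoids and 8 in ISCs. In organoids Notch3 rose and Olfm4 fell with both drivers. Olfm4, a stem cell gene that responds to Notch and is also on the stem cell marker list, went from 1600 and 4640 CPM in WT to 87.3 and 129 CPM in Sec-Cre (-4.90 ± 0.64, edgeR adjusted p = 0.00139) and 109 and 44.1 CPM in ISC-Cre organoids (-5.37 ± 0.66, 0.000858). In duodenal ISCs 2 of 8 tested targets rose and 2 fell. The 2 that rose were Hey1 and Hey2, which passed the low-count filter through their duodenal reads. No call but higher was therefore open to them. Olfm4 was at 70.0, 102 and 82.5 CPM against 3010 and 3610 CPM in WT ileal ISCs (-5.29 ± 0.61, edgeR adjusted p = 0.001). Hey1, a Hes-related repressor, had 590 reads in duodenal ISCs and 3 in WT ileal ISCs, a ratio of 83.1 after scaling (exact 95% counting interval 28.3 to 404), and Hey2 had 191 against 0 reads and was at least 26.9-fold higher, counted against 3 reads over the group. In Sec-Cre ileal ISCs Olfm4 missed the threshold (-2.09 ± 0.63, edgeR adjusted p = 0.0528), and only Hes2 of the 8 was called, higher.

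Beyond the members, lower calls outnumbered higher ones among regulators of both fates in Apc-null organoids, where 16.3% (secretory driver) and 18.5% (stem cell driver) of all genes were lower. Of 29 tested secretory regulators other than the members, 11 fell and 4 rose with the secretory driver and 15 fell and 3 rose with the stem cell driver (medians -0.95 and -1.18). Creb3l1, a factor of secretory cells, was at 52.8 to 57.8 CPM in WT and 5.15 to 13.04 CPM in the Apc-null organoids, while Foxa1 rose (1.12 ± 0.16 and 1.06 ± 0.16, edgeR adjusted p = 0.00206 and 0.00218). Of 21 tested absorptive regulators, 11 fell and 1 rose with the secretory driver and 14 fell and 1 rose with the stem cell driver (medians -0.90 and -0.96). Creb3l3, Vdr and, with the stem cell driver, Hnf4a led them. Vdr, the vitamin D receptor, went from 291 to 324 CPM in WT to 24.0 to 33.6 CPM. In duodenal ISCs 9 of 30 secretory regulators fell and 2 rose, among them Neurod1 and Insm1 of the enteroendocrine lineage (-4.15 ± 0.62 and -3.53 ± 0.49, edgeR adjusted p = 0.00283 and 0.00228), and 7 of 21 absorptive ones fell and 4 rose.

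In Sec-Cre ileal ISCs 7 of 21 absorptive regulators were higher, 0 lower and 14 not called (median 0.64), beside 9.62% of all genes higher, and 3 of 30 secretory regulators were lower and 2 higher (median -0.85). Creb3l3, a factor of mature enterocytes, was at 408 to 599.9 CPM against 0.248 to 0.962 CPM in WT ileal ISCs (9.65 ± 0.87, edgeR adjusted p = 0.00158), beside enterocyte markers of 24000 to 44900 CPM in the same libraries. As interaction terms, 9 of the 21 absorptive regulators were lower in the organoid effect than in the ISC effect and 0 higher. Of all 15208 genes, 26.4% were called in the interaction test, about as many higher as lower.

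The genes whose pattern over the 13 libraries was most like that of Atoh1 (Pearson r of log2(CPM + 1), 10116 genes compared) were Arhgef38 (r = 0.974), Mgat3 (0.973), Slc35e1 (0.958), Fam174b (0.953) and Cnnm4 (0.938). Mgat3 and Fam174b were also among the first 5 by Spearman's rho (0.973 for both). Like Atoh1, Fam174b was highest in WT ileal ISCs (89.7 to 105 CPM) and lowest in duodenal ISCs (5.91 to 13.6 CPM). Hes1 had no match as near: Ccbl1 (r = 0.83), Lhpp (0.809), Ptgr1 (0.803), Nudt6 (0.798) and Dus4l (0.788) came first. These are descriptions over libraries that fall into groups of 2 and 3 and share their scaling.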

How the data were processed

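Gene-level read counts were deposited by the authors as 1 table per library, and the column for both strands together was used. STAR, DESeq2 1.22.2 and the build mm10 are named per the submitters' processing notes, which give no role for them, and the gene annotation is not given in the sources used here. Libraries were polyA RNA made with a kit that does not keep strand, per the labels' protocols, though the 3 duodenal libraries were strand-specific in the deposited counts. The 4 summary lines of each table were left out.

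Counts were tested in R 4.3.3 with edgeR 4.0.16 (filterByExpr with a minimum count of 10, TMM, quasi-likelihood test, prior count 0.125, Benjamini-Hochberg over all genes of a fit, threshold 0.05). The 6 organoid libraries, the 7 ISC libraries and all 13 libraries were fitted apart (14208, 14577 and 15208 genes, residual degrees of freedom 3, 4 and 7), the last for WT organoids against WT ISCs and for the interaction. An SE is the size of the log2 fold change over the root of its F statistic. The script was tested on simulated data. Alternatives used DESeq2 1.42.0, other scaling, filters and sample sets, and a correction for exon length (loess per library) that was chosen after seeing the data. Annotation and plots used Python 3.11.15.

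The members and gene lists were chosen with earlier results of these data known. The text names all 10 members, up to 3 called genes with the smallest adjusted p per pathway list and comparison, and the 5 genes most like Atoh1 and Hes1 among those with a mean log2 CPM of at least 3. Markers are named with their list, and Apc, Lgr5, Olfm4, Cdh5, Pecam1 and Kdr as checks, chosen, like Flt1, Tek, Mmp7 and Avil, after their values were seen. Replicates were 2 or 3 samples a group, and no label says they were separate mice or cultures, so a p-value here reflects sample-to-sample spread that could be technical. Counting intervals and the floor of 3 counts cover counting error only.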

Additional observations from a re-analysis of the deposited data

Results flagged for a closer look

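The effect of the secretory driver on 2 of the 10 genes differed between organoids and sorted ileal ISCs by a test of the difference itself (interaction term, edgeR quasi-likelihood test over all 13 libraries). For Jag1 the difference was 3.016 on the log2 scale (SE 0.48, adjusted p = 0.000866): both Sec-Cre organoid libraries lay above both WT organoid libraries (59.3 and 65.8 against 24.5 and 35.7 CPM), and both Sec-Cre ISC libraries lay below both WT ISC libraries (6.12 and 6.65 against 21.6 and 27.8 CPM). For Notch1 it was 1.895 (SE 0.37, adjusted p = 0.00312), with overlapping organoid libraries and Sec-Cre ISC libraries at 28.1 and 29.1 against 96.6 and 106 CPM. Notch1 has 14232 exon bases, and in the Sec-Cre ISC libraries genes with over 6629 had a median log2 fold change of -0.43. Jag1, with 5827 exon bases, lies below that length. Without Sec-Cre ISC replicate 1 the differences were 3.04 (Jag1) and 1.85 (Notch1), and without replicate 2 they were 2.86 and 1.83. Material, time point (10 and 21 days) and the quality of the Sec-Cre ISC libraries cannot be told apart here.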

How the results depend on the processing

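Of 1121 values of single members under alternatives, 1017 kept their side of the threshold, 63 lost a call and 41 gained one. Of the 1017, 33 were uncalled values whose sign changed, among them values of Dll4 and Notch1 in Sec-Cre organoids, and 0 called values changed sign. The count of called members moved by over 1.5 times as follows, and the share of all genes called often moved with it. The cause was not tested. For Sec-Cre against WT organoids it was 3 with all 13 libraries in 1 fit (all genes 16.3% in place of 33.0%) and 3 to 7 when 1 library was left out. For ISC-Cre against WT organoids it was 3 to 7 with 1 library left out. For Sec-Cre against ISC-Cre organoids it was 1 with DESeq2 (all genes 0.507%) and 0 to 0 with 1 library left out. For Sec-Cre against WT ileal ISCs it was 3 with only the groups compared (all genes 10.3% in place of 16.6%) and 0 to 5 with 1 library left out, 0 coming without either WT library (all genes 1.76% and 0.996%). Duodenal ISCs gave 3 to 6 against WT and 3 to 6 against Sec-Cre ileal ISCs with 1 library left out. For WT organoids against WT ISCs it was 4 with DESeq2 (all genes 7.85% in place of 3.87%) and 0 to 2 with 1 library left out. The interaction gave 4 with the replicate block, 4 with the correction for transcript length and 2 to 4 with 1 library left out. A lone library left in a group is assumed to vary like the other groups.

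Replicate numbers in the labels are shared between groups without a stated link. Differences between replicates 1 and 2 correlated at -0.12 to 0.074 over 15208 genes, between organoid groups and between ISC groups. No shared effect of equal numbers was seen. This cannot exclude a shared mouse or batch, and organoid groups were not compared with ISC groups. With the replicate block as a covariate, Hes5 in Sec-Cre organoids (adjusted p = 0.0706) and Gfi1 in Sec-Cre ileal ISCs (0.0583) were no longer called, and in duodenal ISCs against WT Gfi1 (0.139) and Dll4 (0.0728) were lost while Hes1 (0.0424) and Hes6 (0.0155) were called. Against Sec-Cre ileal ISCs Hes5 was lost (0.128) and Hes6 called (0.0153). On plain library totals in place of TMM, 31 of 60 group levels, in all 6 groups, moved by at least 1 SD. The TMM factor farthest from 1 was that of Sec-Cre ileal ISC replicate 1 (0.352). Hes5, with 0 to 140 reads a library, is limited by depth.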
